A study of Homo sapiens with 8 samples.

Results

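The replication-dependent histone genes were read across 8 two-colour expression arrays of human cancer cell lines. They were taken as every gene of the array design whose symbol begins with HIST1H, HIST2H, HIST3H or HIST4H. This gave 69 of the 43317 genes on the array, with 85 of its 58201 probes: 6 genes of H1, 17 of H2A, 19 of H2B, 13 of H3 and 14 of H4. Of these, 56 lie on chromosome 6, 12 on chromosome 1 and 1 on chromosome 12. The rule used the symbols alone, but was set with earlier results of these data known.

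Each array carried RNA of treated cells, labelled with Cy5, beside RNA of mock cells of the same line, labelled with Cy3 and described by the labels as not transfected. PC3 prostate cancer cells received bisamide, a small molecule described as an inhibitor of the nuclear protein pirin, for 24 h or for 48 h. A further array held PC3 cells given miR-125b-1-3p, and another C4-2 prostate cancer cells given miR-199-3p. The 786-O line, a renal cancer, received miR-532-5p on one array and miR-532-3p on another, and the T24 line, a bladder cancer, likewise miR-140-5p and miR-140-3p. The microRNAs (miRNAs) were delivered with Lipofectamine RNAiMAX, a lipid reagent. Nothing in the labels says that the mocks received a control RNA or the DMSO in which bisamide was dissolved. Each treatment had 1 array and no dyes were swapped, so a treatment effect, a dye effect and a difference between single cultures cannot be told apart. With so few arrays, precision is limited by their number. Both 786-O arrays appear to share 1 mock sample, and so do both T24 arrays, as read from sample codes of the deposited files.

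Histones package DNA. The core histones H2A, H2B, H3 and H4 form the nucleosome, and H1 binds the DNA between nucleosomes. Most genes of this kind lie in clusters, have no introns in their usual transcript, and are transcribed mainly in S phase, when new DNA must be packaged. Their messenger RNAs (mRNAs) are unusual in that they end in a short stem-loop and not in a poly(A) tail. SLBP, the stem-loop binding protein, holds that end, and the U7 small nuclear ribonucleoprotein helps to cut it. Several members are also known to give a longer transcript with a poly(A) tail, above all in cells that have left the cycle. The labelling kit primes its first strand with oligo-dT, so a tailless mRNA is copied from internal A-rich stretches or not at all, and levels given here cannot be taken as total histone mRNA.

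The stem-loop was looked for in the probes, because it marks the usual end of the transcript. A longer transcript may hold it too, so such a probe need not read that end alone. The pattern searched was GG, any pair of letters, CTTTT, any letter, AG, any pair of letters and CC. It was found in 6 of the 85 histone probes (7.06%) and in 8 of all 58201 probes (0.0137%), with both strands searched. The windows around them are given below with the stem-loop in capitals, 5′ to 3′ as the strand of the gene, in GRCh37.
HIST1H2AI (chr6:27776420-27776445, plus strand): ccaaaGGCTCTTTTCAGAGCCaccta
HIST1H2BE (chr6:26184433-26184458, plus strand): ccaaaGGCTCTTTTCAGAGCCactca
HIST1H2BF (chr6:26200191-26200212, plus strand): ccaaaGGCTCTTTTAAGAGCCa
HIST1H3H (chr6:27778289-27778314, plus strand): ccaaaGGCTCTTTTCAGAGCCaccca
HIST1H4K (chr6:27798954-27798976, minus strand): caaaaGGCCCTTTTTAGGGCCcc
HIST2H3A (chr1:149824662-149824685, plus strand): caaaaGGCTCTTTTCAGAGCCacc
The sides of the stem pair with each other around a T-rich loop. The poly(A) signal AATAAA was found in 6 histone probes (7.06%), against 11.1% of all probes.

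The miRNAs given to the cells are shown because no treatment repeats another. Mature sequences are those of RefSeq (GRCh38.p14), with the seed (bases 2 to 8) in capitals. The labels do not say whether miR-199-3p was the a or the b form, and both have the sequence printed.
miR-199-3p: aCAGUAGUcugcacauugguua
miR-125b-1-3p: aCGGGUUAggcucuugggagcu
miR-532-5p: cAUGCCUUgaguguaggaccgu
miR-532-3p: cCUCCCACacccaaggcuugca
miR-140-5p: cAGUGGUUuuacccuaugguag
miR-140-3p: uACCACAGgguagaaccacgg
No 2 of the 6 seeds are alike.

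A gene was taken as measured on an array when its probe was well above background in both channels. Of the 69 members, 56 were measured on all 8 arrays, 9 on 1 to 7 arrays, and 4 on none. The 4 were HIST1H1T and HIST1H2BA, known as testis forms, and HIST1H4G and HIST2H2BA. The members measured in part were HIST1H1A, HIST1H1B, HIST1H2AA, HIST1H2APS1, HIST1H2BE, HIST2H2BF, HIST3H2A, HIST3H2BB and HIST4H4. RefSeq names HIST2H2BA as H2BP1 and HIST1H2APS1 as H2AC2P. Both are symbols of pseudogenes, which the rule by symbol took in. In 9 cases a member was above background in 1 channel alone, and in 0 of them did the bound on its fold pass 0.5 on the log2 scale. The brightest member was HIST1H4C, with raw Cy3 signals of 23916, 23839 and 20009 in the PC3 mocks, 10223 in C4-2, 11623 and 10974 in 786-O, and 10312 and 9779 in T24. Many members are near copies of each other. For 39 of the 69, the probe is at least 80% identical over 30 bases or more to a probe of another member, so that signals of such genes cannot be told apart with certainty.

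The mock of C4-2 alone held a high signal of the prostate marker KLK3, at a raw 13592 against 21.5 to 22.6 in PC3. PAX8 and PAX2, markers of renal tubule, gave 235 to 239 and 112 to 124 in 786-O but were higher in T24, at 390 to 423 and 551 to 619. Of the uroplakins, which define urothelium, UPK1A alone was above background in T24 (30.7 to 37.9). CDH6, another renal marker, was at 153 to 164 in 786-O and at background in T24, and CA9 was at background in both.

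Ratios are given as the log2 of treated over mock RNA, relative to a loess curve that places genes of each brightness at 0. A size past 0.5 is called lower or higher, and no test was possible with 1 array a treatment. Histone genes were brighter than genes at large on every array, with a median log2 intensity of 9.97 against 7.24 on the bisamide 24 h array, for example. The curve therefore matters for their direction. With median centring in its place, the median of all measured genes moved to 0.45, 0.44, 0.30, 0.42, −0.03, 0.17, 0.35 and 0.45 in the order of the arrays used throughout. That order is bisamide at 24 h and 48 h, C4-2, PC3 given miR-125b-1-3p, 786-O and T24, and where 2 values are given for 786-O or T24 the 5p strand comes before the 3p strand. Values under median centring are accordingly given relative to that median.

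With bisamide at 24 h the histone genes lay slightly below the mock. Their median was −0.17 over 61 measured members, against 0.01 over all 19241 measured genes, and 55 of the 61 were below 0. With median centring this direction was not kept, and the median relative to all genes was 0.06 in place of −0.19. Only HIST1H4B, an H4 gene, passed 0.5, at −0.54. That was 1 of 61 members against 0.4% of all measured genes, and 0 members were higher against 1.05%. HIST1H2AH was next at −0.48. HIST2H2AA4, at 0.35, and HIST3H2BB, at 0.16, were the highest.

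At 48 h the classes separated. The median over all 61 members was −0.22, with 14 members lower, against 0.878% of all measured genes, and 2 higher, against 0.915%. With median centring the median relative to all genes was −0.04, and 0 members were lower and 8 higher, against 1.76% and 6.91% of all genes under that setting. HIST1H4B and HIST1H4L, both H4 genes, were lowest at −0.76 and −0.72. HIST1H2BK and HIST2H2AA4 were highest at 0.74 and 0.58. The class medians were −0.63 for H1, −0.31 for H2A, 0.19 for H2B, −0.44 for H3 and −0.18 for H4. All 13 H3 genes were below 0, whereas 4 of the 16 measured H2B genes were.

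With miR-199-3p in C4-2 the histone genes stayed near the mock, with a median of −0.04 over 60 members (0.18 relative to all genes with median centring). None passed 0.5, against 2.73% of all genes lower and 1.76% higher. The range ran from −0.36 for HIST2H2AC and −0.34 for HIST1H4E to 0.28 for HIST1H3A and 0.18 for HIST1H2AB.

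With miR-125b-1-3p in PC3 the median was 0.05 over 61 members, but 8 members were higher, against 1.77% of all measured genes. Those 8 were all H2B genes, of which 16 were measured: HIST1H2BC at 0.79, HIST1H2BK at 0.78, HIST1H2BD at 0.62, and HIST1H2BH, HIST1H2BI, HIST1H2BL, HIST1H2BM and HIST1H2BO at 0.52 to 0.58. The 2 lower members, against 0.883%, were the H3 genes HIST1H3F at −0.56 and HIST1H3D at −0.55. With median centring the histone median relative to all genes was 0.31, with 0 members lower and 23 higher, against 1.42% and 6.65% of all genes under that setting.

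In 786-O, miR-532-5p gave a median of −0.15 over 60 members, and 5 were lower, against 3.67% of all genes. HIST1H1D, an H1 gene, was lowest at −0.88, followed by HIST1H3D at −0.66. HIST1H2BK was the 1 higher member, at 0.89 against 3.6% of all genes, and HIST1H2BL followed at 0.40. With miR-532-3p the median was −0.27 over 59 members, and 13 were lower, against 3.84%. HIST1H3D was lowest at −0.79 and HIST1H2AH followed at −0.68. None was higher, against 1.71%, and HIST1H2BK and HIST1H3A were highest at 0.48 and 0.27. With median centring both medians stayed below that of all genes, at −0.20 and −0.16, but 9 members were lower and 1 higher with miR-532-5p, against 5.15% and 2.80% of all genes under that setting. With miR-532-3p it was 1 each way, against 2.29% and 7.51%.

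In T24 the histone genes lay above the mock with both strands. With miR-140-5p the median was 0.24 over 63 members, 58 of them above 0 and 5 higher, against 1.74% of all genes. HIST1H4J was highest at 0.82 and HIST1H1B followed at 0.76. No member was lower, against 2.89%, and HIST3H3 and HIST1H1C were lowest at −0.10 and −0.05. With miR-140-3p the median was 0.27 over 63 members, 56 of them above 0 and 8 higher, against 0.998%. HIST1H2AG, at 0.88, and HIST2H3A, at 0.71, were highest. None was lower, against 1.09%, and HIST1H1C and HIST2H2AA4 were lowest at −0.24 and −0.18. With median centring the medians relative to all genes were larger in the same direction, at 0.53 and 0.49, with 38 and 31 members higher, against 11.2% and 9.07% of all genes under that setting. As both arrays appear to share a mock, they are not separate evidence. Between the 3 PC3 mocks, the median over members in Cy3 alone differed with an SD of 0.07 (n = 3). That spread is of 1 channel in another line, and does not measure the error of these ratios.

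**Figure D1:**
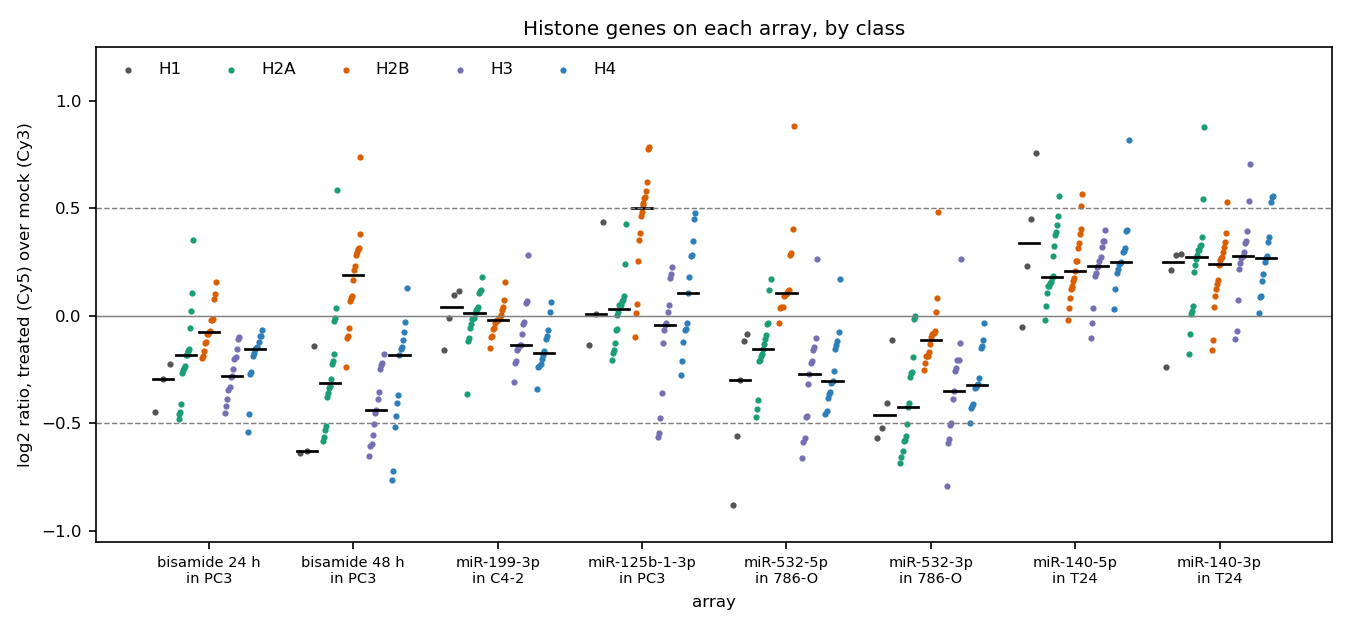
Log2 ratio of treated over mock RNA (vertical axis) of each measured histone gene on each of the 8 arrays (horizontal axis), by class, with 1 point a gene and a bar at the class median. H2B genes sit above H3 genes at bisamide 48 h (medians 0.19 and −0.44) and with miR-125b-1-3p (0.50 and −0.04). On both T24 arrays the medians of all classes lie above 0; with median centring, medians relative to all genes turned to above 0 at bisamide 24 h for H2B (0.17) and H4 (0.08), at bisamide 48 h for H4 (0.07), with miR-125b-1-3p for H1 (0.27) and H3 (0.16), and in C4-2 for H2B (0.18), H3 (0.15) and H4 (0.15).

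The H1 class held 3 genes measured everywhere. HIST1H1C encodes a linker histone and is among the members with a known polyadenylated form. It was at −0.23 and −0.14 with bisamide, 0.10 in C4-2, 0.44 with miR-125b-1-3p, −0.08 and −0.11 in 786-O, and −0.05 and −0.24 in T24. It was thus highest with miR-125b-1-3p and passed 0.5 nowhere. HIST1H1D, another linker histone, was at −0.45 and −0.64 with bisamide, 0.11 in C4-2, −0.14 with miR-125b-1-3p, −0.88 and −0.57 in 786-O, and 0.45 and 0.28 in T24. It was among the lower members on 3 arrays, and HIST1H1E was too (−0.63 at bisamide 48 h, −0.56 with miR-532-5p and −0.52 with miR-532-3p). HIST1H1E and other members given outside the named extremes were singled out after their values were seen. HIST1H1B was not measured in PC3, and was at −0.16 in C4-2, −0.30 and −0.40 in 786-O, and 0.76 and 0.29 in T24.

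Of the H2A genes, HIST1H2AJ had the highest mean intensity. It was at −0.45 and −0.58 with bisamide, 0.11 in C4-2, −0.17 with miR-125b-1-3p, −0.43 and −0.66 in 786-O, and 0.16 and 0.31 in T24. HIST1H2AH followed the same order, at −0.48, −0.51, 0.01, −0.16, −0.39, −0.68, 0.15 and 0.33. These genes, with HIST1H2AK, have probes 84.3 to 87.9% identical to each other over 49 to 58 bases, so their likeness is not that of separate measurements. HIST2H2AA4 departed from its class. It was at 0.35 and 0.58 with bisamide, 0.12 in C4-2, 0.43 with miR-125b-1-3p, 0.17 and −0.00 in 786-O, and 0.46 and −0.18 in T24.

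The H2B class held most of the higher members of the PC3 arrays. HIST1H2BL had the highest mean intensity and was at −0.07 and 0.21 with bisamide, 0.01 in C4-2, 0.53 with miR-125b-1-3p, 0.40 and 0.02 in 786-O, and 0.38 and 0.26 in T24. HIST1H2BD, which is known to give a polyadenylated form, was at −0.01, 0.31, −0.02, 0.62, 0.04, −0.19, 0.16 and 0.27 in the same order. HIST1H2BC was at 0.10, 0.32, 0.16, 0.79, 0.10, −0.17, 0.25 and 0.32. In all 3 the miR-125b-1-3p array gave the highest value. Of the 5 members with a known polyadenylated form (HIST1H1C, HIST1H2AC, HIST1H2BD, HIST1H2BK and HIST2H2BE), 2 were higher there. HIST2H2BE was near background, at raw Cy3 signals of 27.3 to 51.2, and stayed between −0.10 and 0.12.

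Of the H3 genes, HIST3H3 had the highest mean intensity although it is known as a testis form. It was at −0.10 and −0.22 with bisamide, −0.03 in C4-2, 0.19 with miR-125b-1-3p, −0.14 and −0.26 in 786-O, and −0.10 and −0.11 in T24. Its probe is 80% identical to that of HIST1H3C over 55 bases, and how much of its signal comes from other H3 genes was not tested. HIST1H3D was at −0.45 and −0.65 with bisamide, −0.15 in C4-2, −0.55 with miR-125b-1-3p, −0.66 and −0.79 in 786-O, and 0.23 and 0.28 in T24. HIST1H3F was at −0.34, −0.61, −0.14, −0.56, −0.57, −0.57, 0.23 and 0.40 in the same order. Both were lower on 4 arrays, more than any other member.

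Of the H4 genes, HIST1H4C was at −0.27 and −0.52 with bisamide, −0.18 in C4-2, −0.03 with miR-125b-1-3p, −0.15 and −0.33 in 786-O, and 0.32 and 0.56 in T24. HIST1H4B was at −0.54, −0.76, −0.16, −0.28, −0.30, −0.34, 0.30 and 0.37, and HIST1H4L at −0.46, −0.72, −0.22, −0.21, −0.31, −0.42, 0.25 and 0.34. Under loess the 3 genes were below 0 on every array but those of T24. With median centring HIST1H4C turned to above the median of all genes at bisamide 48 h. HIST1H4J differed, at 0.48 for PC3 given miR-125b-1-3p and 0.82 for T24 given miR-140-5p.

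**Figure D2:**
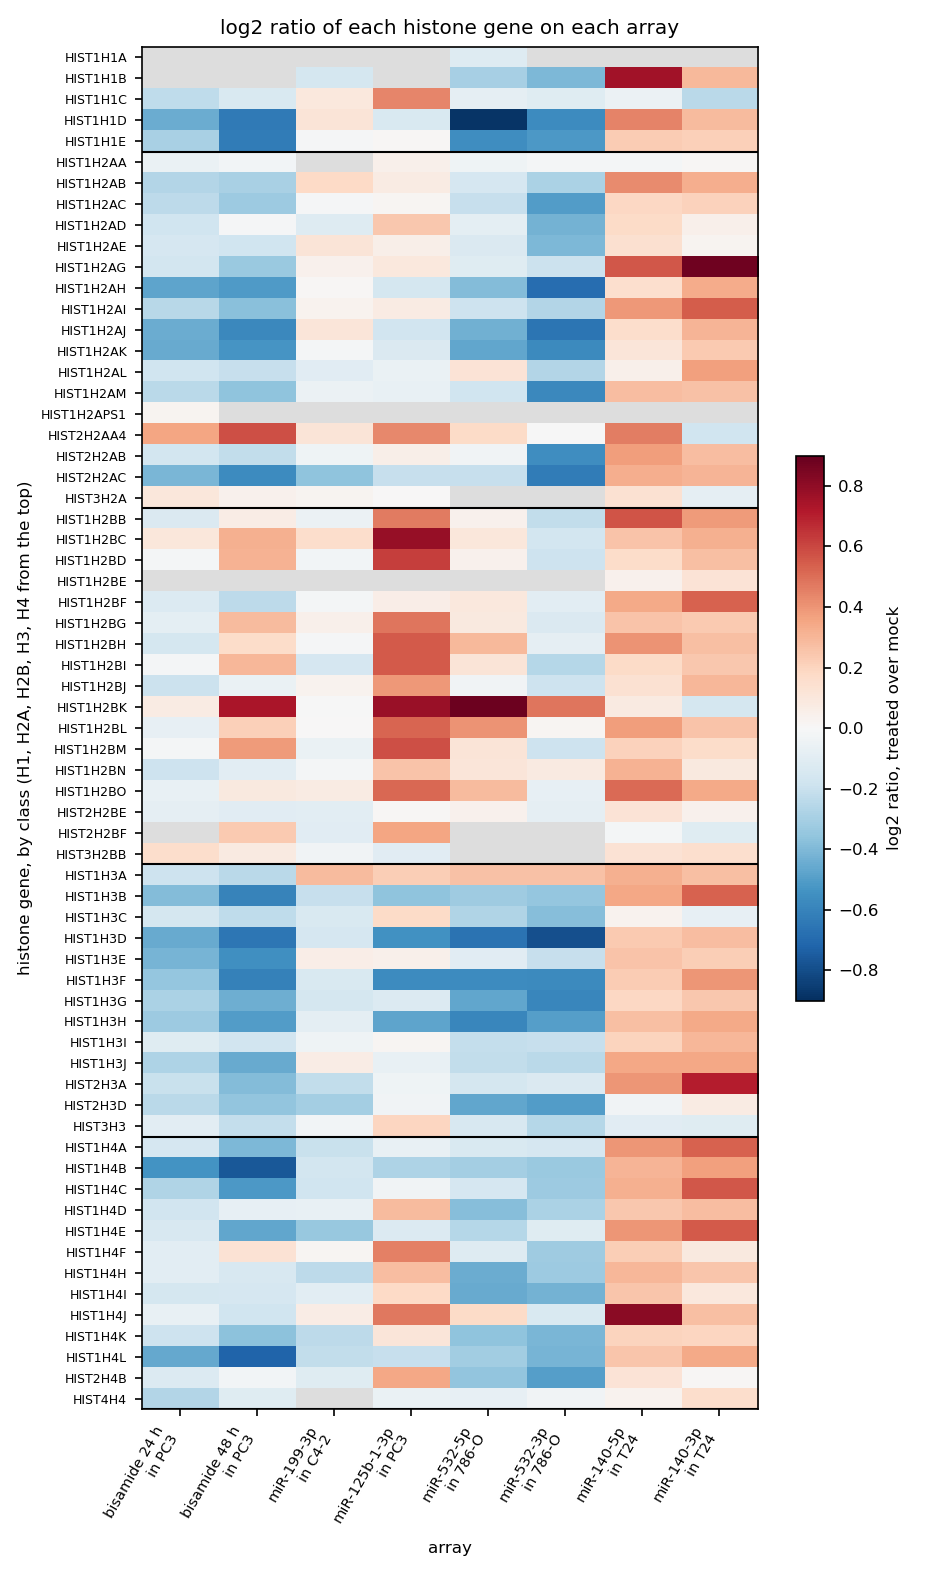
Log2 ratio of treated over mock RNA of every histone gene (rows, by class) on every array (columns), as colour from blue (below the mock) to red (above it), with grey where a gene was not above background in both channels. The rows of H3 genes such as HIST1H3D (−0.65 at bisamide 48 h, −0.55 with miR-125b-1-3p) turn blue where those of H2B genes such as HIST1H2BD (0.31 and 0.62) turn red, and with median centring HIST1H3D was at 0.16 and 0.19 on those arrays, where all genes moved to 0.44 and 0.42.

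The H2B and H3 classes were set against each other, since a shift that all genes of an array share cancels in their difference. The median of H2B minus that of H3 was 0.21, 0.63, 0.12, 0.54, 0.38, 0.24, −0.02 and −0.04 in the order of the arrays. It was largest at bisamide 48 h and with miR-125b-1-3p, both in PC3, and near 0 on both T24 arrays. Over loess, plain subtraction, the scanner's own ratio and median centring it ran from 0.62 to 0.73 at bisamide 48 h and from 0.54 to 0.60 with miR-125b-1-3p. Under median centring it was −0.00 on the miR-532-3p array, 0.03 in C4-2, and −0.14 on both T24 arrays, so that the small differences there depend on the scaling. The mocks themselves differed by class. Against the mean of the other PC3 mocks, H2B genes were at −0.04 and H3 genes at 0.10 in the mock of bisamide 24 h, at −0.10 and 0.00 in that of bisamide 48 h, and at 0.08 and −0.14 in that of miR-125b-1-3p. As the mock is the denominator, these offsets go with a larger H2B minus H3 ratio on both bisamide arrays and with a smaller one with miR-125b-1-3p, and their part in it was not tested. The difference has no replicate.

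Promoters were read for letters that the classes do or do not share. RefSeq (GRCh38.p14) gave a promoter for 61 of the 69 members, from 250 bases before the start to 50 after it. The octamer ATTTGCAT, known from H2B promoters as a site of the factor OCT1, was found on either strand in 13 of 17 H2B promoters (76.5%) and 11 of 15 H2A (73.3%), which lie head to head with H2B genes and can share the same copy. It was found in 1 of 11 H3 promoters and in none of 12 H4 and 6 H1, against 1.80% of all 27305 promoters. The CCAAT box was found in 52 of the 61 (85.2%, against 35.7% of all) and in 3 of 12 H4 promoters. TATAAA was found in 41 (67.2%, against 12%). A match is a description of letters only.

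These letters are shown for 3 promoters, as the 150 bases before the start on the gene's strand, with octamer, CCAAT and TATAAA letters of either strand in capitals. HIST1H2BC and HIST1H2BK were the highest members with miR-125b-1-3p and HIST1H3F the lowest.
HIST1H2BC (chr6:26123927-26124076, minus strand): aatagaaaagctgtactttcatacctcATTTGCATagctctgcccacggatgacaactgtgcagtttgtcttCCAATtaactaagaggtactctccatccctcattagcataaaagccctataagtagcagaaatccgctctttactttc
HIST1H2BK (chr6:27146859-27147008, minus strand): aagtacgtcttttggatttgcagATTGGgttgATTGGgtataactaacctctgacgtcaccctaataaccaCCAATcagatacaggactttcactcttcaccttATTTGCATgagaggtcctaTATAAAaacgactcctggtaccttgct
HIST1H3F (chr6:26250636-26250785, minus strand): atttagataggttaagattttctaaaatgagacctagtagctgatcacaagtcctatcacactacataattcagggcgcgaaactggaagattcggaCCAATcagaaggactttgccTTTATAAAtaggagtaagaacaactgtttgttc
The octamer lies 123 bases before the start in HIST1H2BC and 46 in HIST1H2BK, and HIST1H3F has none in this window. In the longer window the octamer was also found for HIST1H3D, the second lowest member with miR-125b-1-3p, and was not found for HIST1H2BD and HIST1H2BL, which were higher.

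Probes of one gene that lie far apart in its transcript often gave opposite readings. Of 15 members with more than 1 probe, 5 had a probe near the coding sequence and another at least 500 bases further along the listed transcript. The distance between them was chosen as a criterion after the values had been seen, so the pairs are a description with no test. The probes of 3 such genes, and the far probe of HIST2H2BF, whose probes both lie past the coding sequence, are given below, in GRCh37 on the strand of the gene. For each far probe a stretch of 30 of its bases is given. Capitals mark the start codon of HIST1H2AC and each poly(A) signal AATAAA.
HIST1H2AC, coding side (chr6:26124461-26124520, plus strand): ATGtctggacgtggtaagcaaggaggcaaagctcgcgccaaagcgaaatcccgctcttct
HIST1H2AC, far (chr6:26138822-26138851, plus strand): gcattatgcaaatgcattatattttatgta
HIST1H2BK, coding side (chr6:27114437-27114496, minus strand): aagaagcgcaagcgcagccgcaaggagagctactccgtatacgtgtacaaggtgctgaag
HIST1H2BK, far (chr6:27106221-27106250, minus strand): ggtccattccttctctctaataatcattta
HIST1H4H, coding side (chr6:26285497-26285556, minus strand): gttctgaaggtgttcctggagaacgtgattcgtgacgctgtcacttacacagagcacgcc
HIST1H4H, far (chr6:26281297-26281326, minus strand): agatttccAATAAAaggtgAATAAAatcag
HIST2H2BF, far (chr1:149397123-149397152, minus strand): ttttgccaAATAAAatatacccttggtgca
The far probes of HIST1H2AC, HIST1H2BK and HIST1H4H lie 14301, 8186 and 4151 bases from the coding-side probes in the genome but 1057, 519 and 804 bases in the transcript, so the listed transcripts of these genes are spliced.

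HIST1H2AC, an H2A gene, gave the clearest case. Its coding-side probe was at −0.23 and −0.33 with bisamide, −0.01 in C4-2, 0.02 with miR-125b-1-3p, and 0.18 and 0.20 in T24. Its far probe was at 0.63, 1.12, 0.10, 0.19, −0.59 and −0.74 on the same arrays. Both readings had opposite signs on 5 of the 6 arrays. In 786-O the far probe was above background in Cy5 alone, and the coding-side probe was at −0.21 and −0.50. Another probe, at the start of the transcript, was dimmer and ranged from −0.08 to 0.13.

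HIST1H4H, an H4 gene, behaved alike. Its coding-side probe was at −0.09 and −0.15 with bisamide, −0.24 in C4-2, 0.28 with miR-125b-1-3p, and 0.30 and 0.25 in T24, against 0.54, 0.88, −0.11, 1.04, −0.55 and −0.47 for the far probe. The signs were opposite on 4 of 6 arrays.

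HIST1H2BK was the one gene whose probes both read above background on all 8 arrays, and its far probe is the brighter and stands for the gene elsewhere in the text. The far probe was at 0.08 and 0.74 with bisamide, −0.00 in C4-2, 0.78 with miR-125b-1-3p, 0.89 and 0.48 in 786-O, and 0.08 and −0.16 in T24. The coding-side probe was at 0.06, 0.36, −0.02, 0.59, 0.14, −0.22, 0.36 and 0.33. With the coding-side probe, HIST1H2BK was no longer a higher member at bisamide 48 h or with miR-532-5p, and the counts of higher members there were 1 and 0. HIST1H2AG and HIST2H2BE made up the other pairs, with far probes near background.

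The direction over the 5 pairs is given by cell line, which cannot be told apart from the treatment, and the arrays of 786-O and of T24 each appear to share a mock. The far probe was above the coding-side probe in 4 of 4 pairs at bisamide 24 h, in 4 of 4 at 48 h (by 0.38 to 1.45) and in 4 of 4 with miR-125b-1-3p, all in PC3. In 786-O the 1 measured pair gave 0.74 with miR-532-5p and 0.70 with miR-532-3p. In T24 it was below in 5 of 5 with miR-140-5p (by 0.28 to 0.84) and in 5 of 5 with miR-140-3p (by 0.11 to 0.95). In C4-2 with miR-199-3p it was above in 3 of 5, with differences of −0.14 to 0.12. Of the 29 pairs of a gene and an array, the difference kept its sign in 29 with plain subtraction, in 28 with the scanner's own ratio and in 26 with median centring. With median centring HIST1H2AG turned to −0.43 at bisamide 24 h and −0.17 at 48 h, and HIST2H2BE to 0.03 in C4-2. Where the probes of a member lie close together, in 8 genes, they differed by a median size of 0.12 to 0.30 and at most by 0.29 to 0.55. The cause of the difference was not tested.

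**Figure D3:**
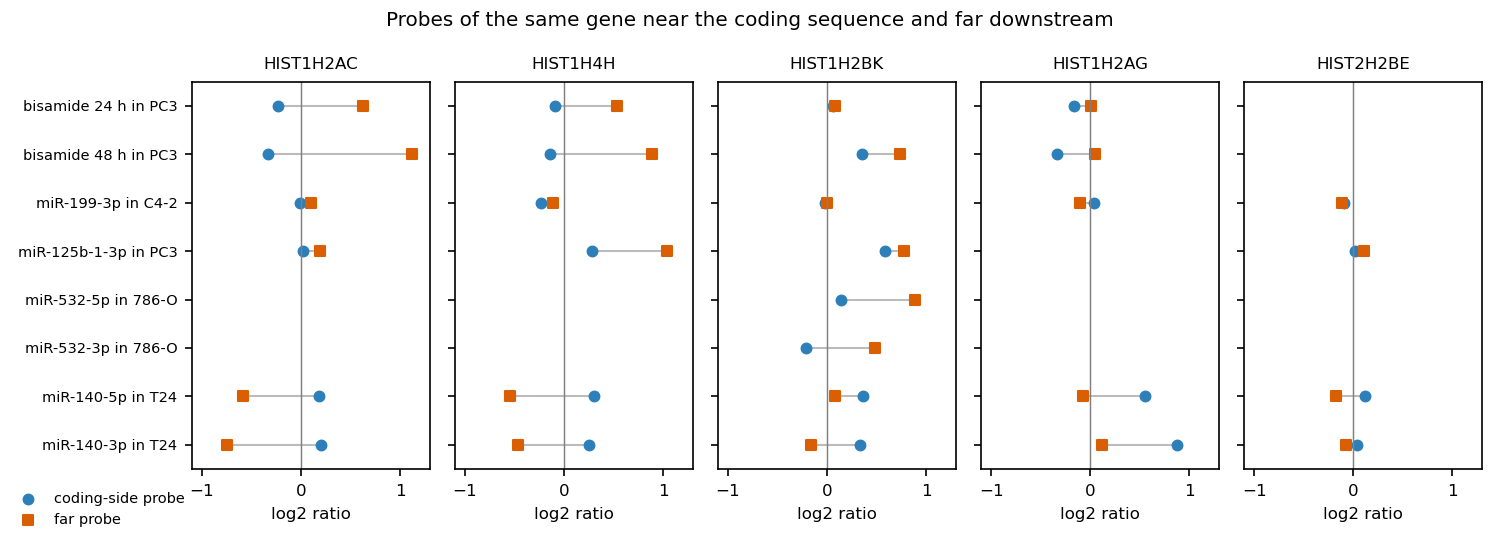
Log2 ratio (horizontal axis) of the coding-side probe (circles) and the far probe (squares) of 5 histone genes on each array (vertical axis), shown where both were above background. Squares lie right of circles in the PC3 rows, for example 1.12 against −0.33 for HIST1H2AC at bisamide 48 h, and left of them in the T24 rows, for example −0.74 against 0.20 with miR-140-3p. The sign of the difference held in 26 of 29 cases with median centring, and turned for HIST1H2AG on both bisamide arrays.

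Genes that act on histone mRNA moved little as a list. It held 22 genes for transcription, processing and decay of histone mRNA, such as subunits of the U7 particle and decay factors. Its medians lay between −0.04 and 0.00 on all 8 arrays (−0.12 to 0.15 relative to all genes with median centring). SLBP was the 1 member past 0.5, on 1 array. It was at −0.26 and −0.07 with bisamide, 0.10 in C4-2, −0.28 with miR-125b-1-3p, −1.13 and −0.04 in 786-O, and −0.25 and 0.06 in T24. NPAT, the coactivator of histone genes in S phase, was at −0.14 to −0.01 on the 7 arrays where it was measured, which leave out miR-532-5p. It was dim, at raw Cy3 signals of 27.5 to 55.4. The offset of 50 used in background correction draws ratios of such genes towards 0. CASP8AP2, which is found with NPAT at histone gene clusters, was at −0.25, −0.20, −0.02, −0.14, −0.38, −0.03, −0.25 and −0.22.

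A list of 39 S phase genes, such as PCNA, the polymerase clamp, TYMS, the thymidylate synthase, and CCNE2, a cyclin of the start of S phase, was read beside the histones, since both rise with DNA replication. Its medians were −0.36, −0.29, −0.07, −0.18, −0.54, −0.11, −0.36 and 0.06 in the order of the arrays. With median centring they were −0.17, −0.11, 0.01, 0.01, −0.63, −0.00, −0.05 and 0.32 relative to all genes. At bisamide 24 h 38 of 39 S phase genes were below 0 and 8 lower, against 45.8% and 0.4% of all measured genes, the lowest being CCNE2 at −0.77. At 48 h 38 of 39 were below 0 and 5 lower, against 45.7% and 0.878%. With miR-532-5p 38 of 38 were below 0 and 23 lower, against 49.9% and 3.67%, with TYMS lowest at −1.27. In these cases histone genes and S phase genes were both on the low side under loess.

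Histone and S phase genes parted with miR-140-5p in T24. There 37 of 39 S phase genes were below 0 and 7 were lower, against 47.6% and 2.89% of all genes, whereas 58 of 63 histone genes were above 0. Medians were −0.36 and 0.24, and −0.05 and 0.53 relative to all genes with median centring. With miR-140-3p, against what appears to be the same mock, the S phase median was 0.06 and the histone median 0.27. In bulk RNA, fewer cells in S phase and less histone mRNA in each such cell cannot be told apart.

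A further list held histone variants taken as not depending on replication, most of which have ordinary polyadenylated mRNA. How far each member depends on replication was not tested. Of 12 listed, 11 were on the array under the listed symbol. Their medians were −0.20, −0.21, 0.06, −0.02, −0.38, −0.33, 0.05 and −0.02, and with median centring those at bisamide 24 h, bisamide 48 h and miR-140-3p turned to 0.18, 0.25 and 0.36 relative to all genes, and that of miR-532-3p was −0.05. H2AFX, which marks DNA breaks when phosphorylated, was at −0.55 and −0.45 with bisamide, 0.52 in C4-2, −0.44 with miR-125b-1-3p, −1.15 and −0.91 in 786-O, and −0.23 and −0.02 in T24. It was the lowest of the list at bisamide 24 h, on both 786-O arrays and with miR-140-5p, and the highest in C4-2. CENPA, the H3 variant of centromeres, was lowest at bisamide 48 h (−0.76), and H1F0, the linker variant of resting cells, with miR-125b-1-3p (−0.69). Of 16 histone chaperones, CHAF1B, a subunit of the assembly factor of replication, was lowest with miR-532-5p at −0.89, HIRA, which places the variant H3.3, with miR-532-3p at −0.92, and ASF1B, which carries H3 and H4, with miR-140-5p at −0.69.

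**Figure D4:**
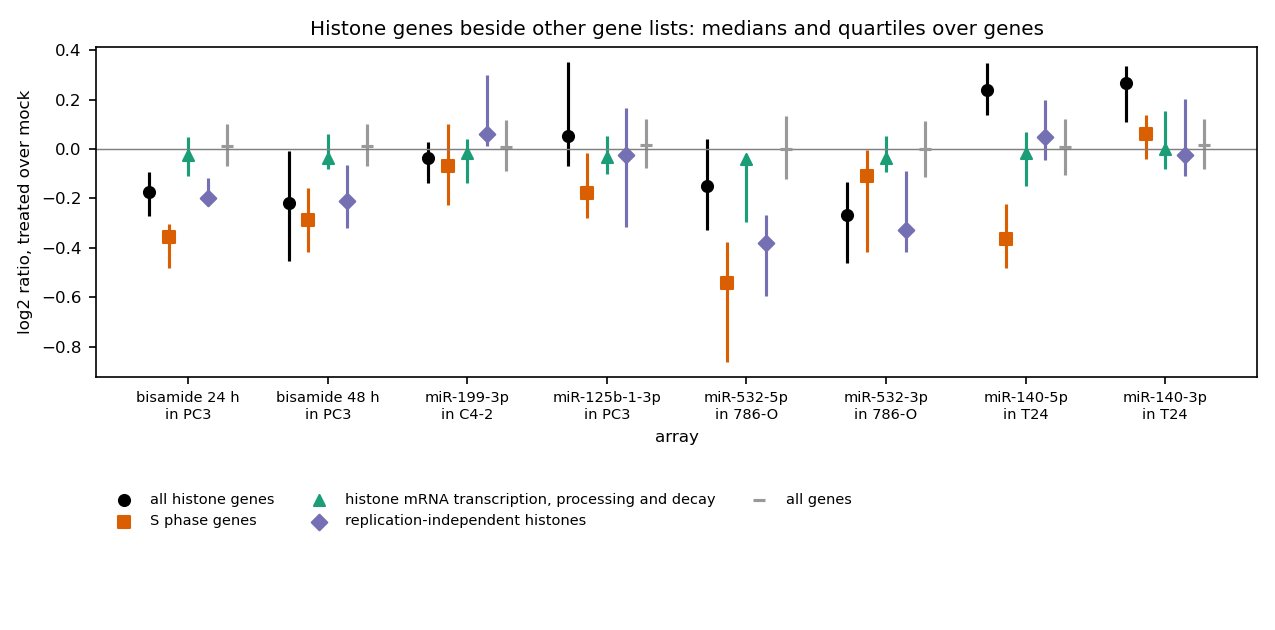
Median log2 ratio (vertical axis) of histone genes and of the other gene lists on each array (horizontal axis), with bars from the first to the third quartile over genes. With miR-140-5p the histone median is 0.24 and the S phase median −0.36; with median centring they were 0.53 and −0.05 relative to all genes, and the histone median turned to above 0 at bisamide 24 h (0.06) and with miR-199-3p (0.18).

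The mock channels show the signal of histone genes in the mock cells of each line, which cannot be taken as total histone mRNA. Cy3 was compared after quantile normalization, with limma and Benjamini-Hochberg adjustment over 20447 genes and 64 histone genes tested. The 3 PC3 mocks were the only replicates and the other lines, with 1 mock each, were assumed to vary like PC3. Nothing in the labels says that the PC3 mocks came from separate cultures, so p-values measure the spread between these samples. The median SD of a member between PC3 mocks was 0.11.

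In C4-2, 29 histone genes were higher than in PC3 and 6 lower, against 27.5% and 23.2% of all genes, with a median difference of 0.20. This direction turned with median centring of Cy3, where 2 were higher and 39 lower and the histone median was −0.36 relative to all genes, whose median moved to −0.33. The H2B class held the most higher genes, with 11 of 17 higher and 0 lower, at a median of 0.67. The H1 median was larger, at 1.35 over 5 genes. HIST2H2AA4 was at raw Cy3 signals of 361 against 102, 115 and 270 in PC3, a difference of 2.13 ± 0.43 (SE; limma adjusted p = 0.024). HIST2H2BF was at 134 against 26.1, 28.8 and 50.7 (2.01 ± 0.17, adjusted p = 0.0033). The lowest were HIST1H4C, at −0.86 ± 0.17 (adjusted p = 0.023), and HIST1H3D, at −0.48 ± 0.08 (adjusted p = 0.016). HIST1H1C was 1.92 ± 0.42 above PC3 (adjusted p = 0.028) and HIST1H2BD 1.44 ± 0.05 (adjusted p = 0.00087). Of the 5 members with a known polyadenylated form, 4 were higher and 0 lower under quantile normalization. This count depends on the scaling, as with median centring of Cy3 only 2 histone genes in all were higher. Under quantile normalization the S phase list went the other way in these mocks, with 24 of 39 genes lower, 2 higher and a median of −0.65. With median centring of Cy3 the histone genes were on the low side too, and the S phase list was not read under that setting. Without PC3 mock 1 or 2, 16 or 17 histone genes were higher in C4-2 and 0 lower.

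In 786-O, 7 histone genes were higher and 20 lower, against 20.1% and 17.3% of all genes, at a median of −0.28. All 11 H2B genes that passed the test were lower, and the H2B median was −0.64. HIST1H2BK was lowest, at raw Cy3 signals of 59.3 and 70.8 against 1060, 1055 and 1908 in PC3 (−2.78 ± 0.37, adjusted p = 0.013). HIST1H3C followed at −1.17 ± 0.12 (adjusted p = 0.0075). The value of HIST1H2BK is that of its far probe. Its coding-side probe read a raw 126 on both 786-O arrays against 520, 499 and 596 in PC3, and was not fitted. Raw signals are not scaled between arrays, so this gap does not give the size of a difference between the lines. HIST1H2AC too had lower raw signals in 786-O than in PC3, but differed by only −0.10 under quantile normalization. Whether the coding-side probe of HIST1H2BK differs between the lines was thus not tested. HIST1H1B was the highest. It was not well above background in PC3, at 19.0 to 20.2, and was at 107 and 106 in 786-O, at least 3.65-fold higher (adjusted p = 0.00089). HIST1H2AL, an H2A gene, was 0.72 ± 0.05 higher (adjusted p = 0.0039). Under quantile normalization SLBP was higher than in PC3 by 1.252 ± 0.10 (limma adjusted p = 0.0050). Its raw Cy3 signals were alike, at 671 and 663 in 786-O against 730, 629 and 646 in PC3. The difference thus rests on the scaling between arrays, and was not read with median centring of Cy3. Without PC3 mock 1 or 2, 11 or 9 histone genes were lower and 3 or 4 higher.

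In T24, 4 histone genes were higher and 27 lower, against 18.2% and 14.2% of all genes, at a median of −0.27. The H3 class stood lowest, with 10 of 13 genes lower, 0 higher and a median of −0.67. HIST2H2AC was lowest, at −1.62 ± 0.05 (adjusted p = 0.0018), with raw Cy3 signals of 431 and 428 against 1830, 1695 and 1878. HIST1H3C was at −1.31 ± 0.12 (adjusted p = 0.0070). HIST1H1B was at 121 and 131, at least 2.55-fold above PC3 (adjusted p = 0.0020), and in C4-2, at 78.3, at least 2.83-fold (adjusted p = 0.00080). HIST1H2BE was above background in both channels in T24 alone, at 74.2 and 75.3 against 21.8 to 23.3 in PC3, at least 1.78-fold (adjusted p = 0.0040). Under quantile normalization the S phase list had 17 of 39 genes higher in T24 and 1 lower, at a median of 0.41, opposite in sign to the histone genes. It was not read with median centring. With median centring the histone medians relative to all genes were −0.95 in 786-O and −0.53 in T24. Without PC3 mock 1 or 2, 10 or 7 histone genes were lower in T24 and 2 higher.

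**Figure D5:**
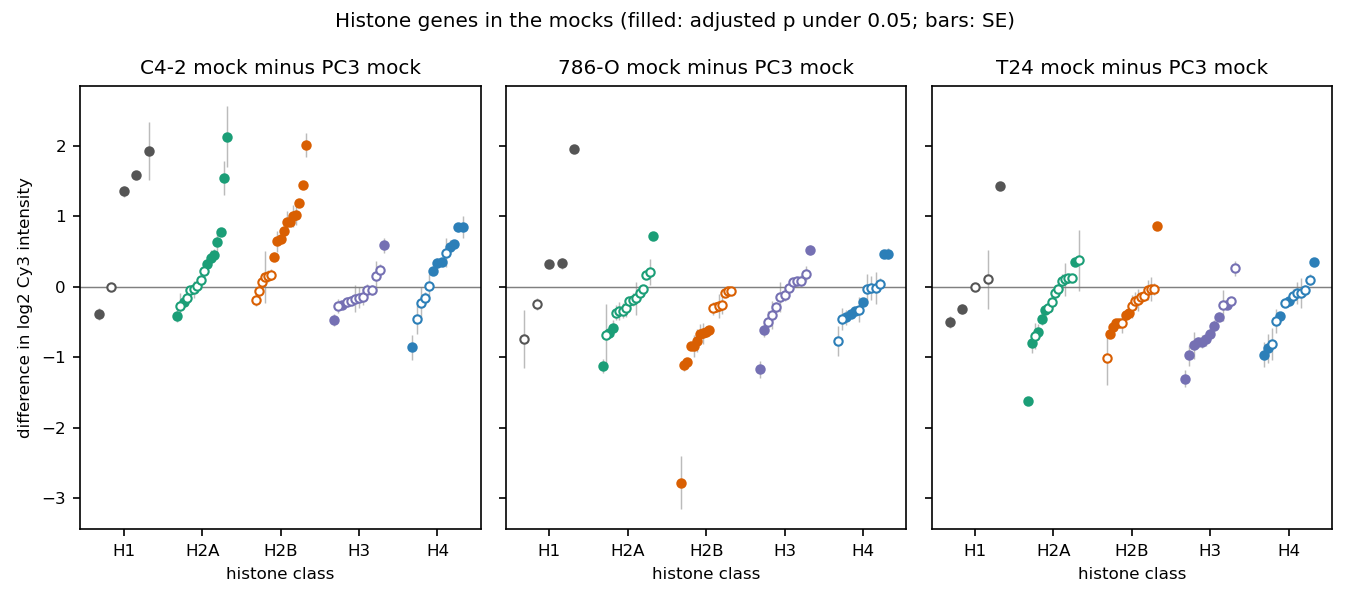
Difference in log2 Cy3 intensity from the PC3 mock (vertical axis) of each histone gene in the mocks of C4-2, 786-O and T24, by class (horizontal axis), with SE bars and filled points for an adjusted p under 0.05. H2B genes stand above 0 in C4-2 (median 0.67) and below it in 786-O (−0.64), and H3 genes stand below 0 in T24 (−0.67); with median centring of Cy3 the C4-2 genes turned, to 2 higher and 39 lower.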

How the data were processed

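RNA of treated (Cy5) and mock (Cy3) cells was hybridised to 8 two-colour Agilent arrays on 1 slide, scanned once. Per the file headers, the authors extracted spot intensities with Feature Extraction 11.5.1.1. The deposited value table holds log10 ratios of Cy5 over Cy3, identical to the scanner's own (largest difference 0), and was an alternative only. Mean intensities were background-corrected (normexp, offset 50) and loess-normalized within each array in limma 3.58.1 (R 4.3.3). Control spots and outlier spots (126 to 181 an array) were left out, spots of a probe averaged, and a gene given by its brightest probe. A gene was measured where well above background in both channels, which held for 15442 to 19241 genes an array, and 0 spots were saturated. With 1 array a treatment, a log2 ratio past 0.5 either way was called, with no test. For the mocks, Cy3 was quantile-normalized and fitted with limma (lmFit, eBayes) over 3 PC3 mocks and 1 unit for each other line, with Benjamini-Hochberg adjustment and calls at 0.05. Scripts were tested on simulated data. For a gene not well above background in PC3, the fold is a bound against the higher of its own signal and the lowest signal well above background on each array.

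The members, the gene lists and the comparison of probes were chosen with earlier results of these data known. Named were HIST1H1C, HIST1H2AC, HIST1H2BD, HIST1H2BK, HIST2H2BE, SLBP, NPAT and CASP8AP2, the 2 lowest and 2 highest members of each array, the brightest of each class, the 2 largest called differences each way of each line, and the lowest or highest member of other lists.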

Additional observations from a re-analysis of the deposited data

How the results depend on the processing

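No paired analysis was possible because there was a single array for every treatment. Their number and the placing of 0 limit the ratios. With median centring in place of loess, lower members, higher members and the median were 0, 32 and 0.51 at bisamide 24 h, 0, 26 and 0.40 at bisamide 48 h, 0, 49 and 0.73 with miR-125b-1-3p, and 0, 3 and 0.017 with miR-532-3p. Under it 27 were higher (median 0.48) with miR-199-3p, 12 lower (−0.23) with miR-532-5p, 55 higher (0.88) with miR-140-5p and 56 higher (0.94) with miR-140-3p. That setting moved the median of all genes to 0.45 at bisamide 24 h, 0.44 at bisamide 48 h and 0.42 with miR-125b-1-3p. Values that were below 0 under loess and above 0 under it, read without regard to that move, were at bisamide 48 h the H1 median (0.12), HIST1H1D (0.12), HIST1H2AH (0.35), HIST1H2AJ (0.28), HIST1H3D (0.16), HIST1H3F (0.12), HIST1H4B (0.13), HIST1H4C (0.58), HIST1H4L (0.25) and HIST2H2AC (0.23), at bisamide 24 h HIST1H4B (0.36), and with miR-125b-1-3p HIST1H3D (0.19) and HIST1H3F (0.098). Relative to all genes HIST1H4C alone among them turned, and the H1 median was −0.32.

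After subtracting each gene's median over the other arrays, 0 members were lower at bisamide 24 h, 4 lower and 1 higher at bisamide 48 h, 2 higher with miR-199-3p, 0 lower and 4 higher (median 0.23) with miR-125b-1-3p, 2 lower with miR-532-5p, 4 lower with miR-532-3p, 22 higher (0.36) with miR-140-5p, and 2 lower and 22 higher (0.35) with miR-140-3p. With plain subtraction, 2 were lower at bisamide 24 h, the median was −0.30 at bisamide 48 h, 9 were lower and 2 higher with miR-532-5p, 21 lower and 1 higher (−0.39) with miR-532-3p, 8 higher with miR-140-5p and 1 lower with miR-140-3p. With the scanner's own ratio the median was −0.30 at bisamide 48 h, 11 were lower and 3 higher (−0.25) with miR-532-5p, 22 lower and 1 higher (−0.40) with miR-532-3p, 8 higher with miR-140-5p and 1 lower with miR-140-3p. With the mean over probes 5 were higher with miR-140-3p. With the coding-side probe, and without members that have a far probe (both chosen after seeing the data), 1 was higher at bisamide 48 h and 0 with miR-532-5p.

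For the mocks, with all 8 arrays as separate samples 10 members were lower in C4-2 and 36 in 786-O. With median centring of Cy3, 2 were higher and 39 lower in C4-2, and 2 higher and 54 lower in 786-O. With plain background subtraction 3 were lower in C4-2. Leaving out 1 PC3 mock at a time gave 16 to 31 higher and 0 to 9 lower in C4-2, 3 to 6 and 9 to 27 in 786-O, and 2 to 6 and 7 to 33 in T24. Causes were not tested.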
